A study of Mus musculus with 33 samples.

Results

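B cell precursors of bone marrow were selected on Cd79a, the signalling chain of the B cell receptor, together with at least 2 of 4 genes of early B cell development. The 4 genes were Vpreb1 and Igll1, which encode the surrogate light chain, Rag1, a subunit of the recombinase that rearranges antigen receptor genes, and Dntt, which adds bases at the junctions of rearranged segments. At least 1 unique molecular identifier (UMI, 1 counted RNA molecule) was required for each gene counted. The rule was applied to kept cells. A kept cell had no fewer than 500 UMIs from no fewer than 200 genes, with mitochondrial genes giving 15% of them or less. It found 219 precursors among 38359 kept bone cells, of which 3668 held Cd79a, and among 77728 kept cells in all 33 samples.

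The study used SAMENT, a niche tagging method in which an enzyme on injected tumour cells places biotin on cells they touch, and sorted dissociated femurs and tibias into biotin positive and biotin negative cells after overnight labelling. After intracardiac injection, 4 numbered positive and 4 numbered negative bone samples were tagged with CellPlex and read from the 3′ end, and the authors deposited 1 matrix for each. After an injection that the labels name only IIA, bone cells of 6 numbered positive and 6 numbered negative samples were tagged with TotalSeqC hashtags, pooled and read from the 5′ end, and their 12 hashtags were read here (the leading tag needed 10 counts and 3 times as many as the next). The labels do not state strain, age, sex or the injected tumour cells. Within each experiment both sorts carry the same injection label, and the series' design describes substrate labelling for all tissues collected.

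The 2 experiments differed in library chemistry, tagging and depth, so they were analysed separately. Biotin negative IIA samples held 2322 to 3480 kept cells with a median of 2532 to 3991 UMIs, and biotin positive IIA samples held 249 to 2140 kept cells with a median of 3641 to 10766 UMIs. Intracardiac bone held 2446 to 3505 kept cells per negative sample and 620 to 2008 per positive sample, with medians from 5715 to 11313.5 UMIs. Intracardiac samples of the same number shared 0 cell barcodes over 112 pairs, and those of different number shared 341 over 384 pairs. None of the 18 barcodes of that experiment that met the rule in any tissue was among the shared ones. The labels do not say that same-group samples came from separate animals, so p-values measure the spread between these samples. Shares of cells carry 95% exact binomial (Clopper-Pearson) intervals that cover counting error only. Where a sample held no precursor, the limit of 3 counts of its kept cells is given as well as the upper end of its interval, which is higher.

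In bone marrow, a progenitor committed to the B lineage under the transcription factors Ebf1 and Pax5 first rearranges its heavy chain locus, a step carried out by Rag1 with Rag2 and edited by Dntt. A heavy chain that pairs with the surrogate light chain of Vpreb and Igll1 forms the pre-B cell receptor, and cells that carry it divide several times with help from interleukin 7. The recombinase and Dntt are low in dividing large pre-B cells, the recombinase returns for light chain rearrangement, and surrogate light chain is lost before surface immunoglobulin appears.

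Precursors were almost all from IIA bone, which held 213 of the 219. The 200 biotin negative ones made up 1.14% of 17473 kept cells (interval 0.992 to 1.31) and the 13 biotin positive ones 0.266% of 4889 (0.142 to 0.454). Intracardiac bone held 6, of which 2 were in negative sample 1 and 4 in positive sample 1. The remaining 6 intracardiac bone samples held none.

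The label was checked with B lineage genes that played no role in the choice. Of the 200 biotin negative IIA precursors, 99% held a UMI of Ebf1, 80.0% of Pax5, 76.5% of the receptor chain Cd79b and 61.5% of the interleukin 7 receptor Il7r, at a median of 3376.5 UMIs. Among 12162 neutrophils of the same samples (cells without Cd79a holding at least 5 UMIs and 1% of their UMIs in 8 neutrophil genes), the shares were 0.904%, 0.247%, 1.09% and 0.617%, at a median of 3046 UMIs. Ms4a1 (CD20), which appears on later B cells, was found in 2% of precursors. Most precursors thus held B lineage genes that neutrophils rarely held, and few held Ms4a1.

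Start-site sequences of 3 of the genes that defined the precursors are shown, because these genes were read together in 1 cell and short binding motifs of early B cell regulators can be looked for in them. Sequences are from RefSeq on GRCm38.p6, written 5′ to 3′ on the gene's strand and ending at the RefSeq start of the gene, except for Cd79a. Capitals mark the letters CAGGTG, an E-box of the kind bound by Tcf3 products, and CCCNNGGG, a short form of the Ebf1 motif, on either strand, and the 2 motifs did not overlap. Igll1 lay at chr16:16863986-16864235 on the minus strand, Rag1 at chr2:101649533-101649782 on the minus strand and Cd79a at chr7:24897247-24897380 on the plus strand, where the last 116 bases before the start were left out because GENCODE vM21 annotates an exon there.
Igll1: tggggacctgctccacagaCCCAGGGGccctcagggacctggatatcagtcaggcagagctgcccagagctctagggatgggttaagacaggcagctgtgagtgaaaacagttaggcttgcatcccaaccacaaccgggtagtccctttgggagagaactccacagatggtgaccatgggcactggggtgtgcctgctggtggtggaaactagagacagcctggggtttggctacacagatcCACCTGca
Rag1: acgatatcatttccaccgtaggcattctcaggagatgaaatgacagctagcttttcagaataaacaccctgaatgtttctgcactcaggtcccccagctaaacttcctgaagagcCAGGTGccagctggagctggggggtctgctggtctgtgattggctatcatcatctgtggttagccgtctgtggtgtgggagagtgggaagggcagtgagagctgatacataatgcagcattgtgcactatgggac
Cd79a: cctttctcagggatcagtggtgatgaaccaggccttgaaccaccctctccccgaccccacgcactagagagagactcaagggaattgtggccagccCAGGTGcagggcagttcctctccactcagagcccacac

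CAGGTG began 8 bases before the start of Igll1, 135 bases before that of Rag1 and 154 bases before that of Cd79a. Among the 250 bases before the start of 8 genes (Cd79a, Vpreb1, Vpreb2, Vpreb3, Igll1, Rag1, Rag2 and Dntt), CAGGTG was present in 5 (Cd79a, Vpreb1, Vpreb2, Igll1 and Rag1), against 17.2% of 32851 windows of that length. Vpreb1 and Vpreb2 are near copies, with transcripts 97.4% identical, so they do not count as separate cases. The sequences printed are all from genes with CAGGTG, and Vpreb3, Rag2 and Dntt lacked it. CCCNNGGG was present in Igll1 alone, 231 bases before its start, against 11.8% of windows. These are matches of letters and not measured binding.

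The surrogate light chain was found in most precursors and the recombination genes in fewer. Of the 200 biotin negative IIA precursors, 93.5% held Vpreb1 (interval 89.1 to 96.5), 92.5% Igll1 (87.9 to 95.7), 52.5% Dntt (45.3 to 59.6) and 36.0% Rag1 (29.4 to 43.1). These values chose the cells and are given as a description. Among neutrophils 0.378%, 0.271%, 0.280% and 0.0329% held the same genes, and 0.0247% held at least 2 of them. Dntt was found in 56.4% (sample 1), 59.5% (sample 2), 47.1% (sample 3), 52.5% (sample 4), 54.5% (sample 5) and 31.6% (sample 6) of the precursors. Sample 6 was lowest in Dntt, with 6 of 19 cells.

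Just inside the rule, 96 biotin negative IIA cells held Cd79a and exactly 2 markers. Just outside it, 162 cells held Cd79a and 1 marker, which was Rag1 in 72.2% of them. These 1-marker cells had a median of 1922.5 UMIs against 6147.5 for the cells with exactly 2, and 68.5% held a UMI of the kappa light chain gene Igkc against 51.0%. Il7r was found in 58.0% and 70.8%, and Ms4a1 in 4.32% and 4.17%. A further 13 cells held at least 2 markers but no Cd79a UMI, and 1414 held Cd79a and no marker.

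**Figure D1:**
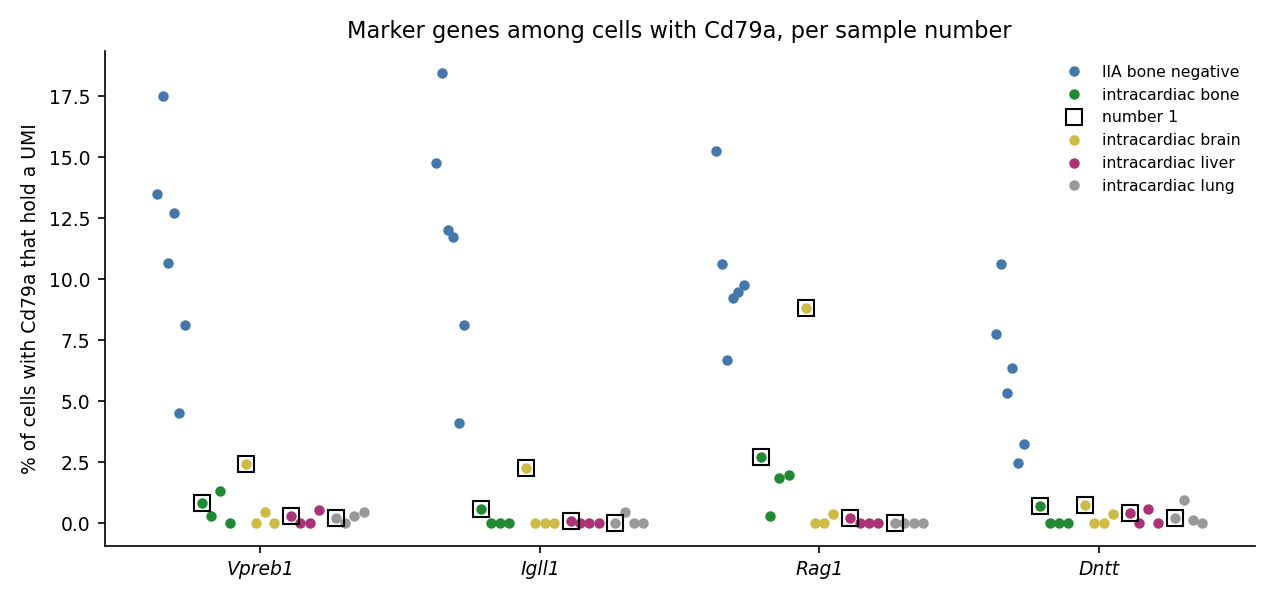
Share of cells with Cd79a (%, y axis) that held a UMI of each of the 4 marker genes (x axis), 1 point per sample number, for biotin negative IIA bone and for intracardiac bone, brain, liver and lung with both sorts joined. Boxes mark intracardiac number 1, where Rag1 was found in 2.73% of bone and 8.82% of brain cells with Cd79a.

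The precursors fell into a few marker patterns that differed in cell cycle genes. The commonest was Vpreb1 with Igll1 and neither recombination gene, in 75 of 200 cells, followed by Vpreb1, Igll1 and Dntt in 49 and all 4 genes in 45. Cells were called cycling when at least 2 of Mki67, Top2a, Cdk1, Ccna2, Birc5 and Cenpf had a UMI. By that measure 90.7% of the cells with Vpreb1 and Igll1 alone were cycling (interval 81.7 to 96.2), against 34.7% of those with Dntt added (21.7 to 49.6) and 20.0% of those with all 4 (9.58 to 34.6). Depth moved with the patterns: the median was 7622, 2892 and 2538 UMIs in that order, and its part in the cycling shares was not tested. In every one of these patterns cells came from all 6 samples.

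Split by Dntt alone, 105 precursors held it and 95 did not. Cycling cells made up 24.8% of those with Dntt (interval 16.9 to 34.1) and 74.7% of those without (64.8 to 83.1). Per sample, the share ran from 16.1% to 37.5% with Dntt and from 66.7% to 82.8% without it, so the ranges did not overlap. The median depth was 2574 and 6236 UMIs. The split uses a gene of the rule on the same cells, so its values carry no test.

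Gene levels were then summed over the cells of each sample and scaled to 1000000 UMIs (CPM, counted molecules of a gene per 1000000). With a level of at least 20 CPM on either side, 7602 genes were compared between precursors with and without Dntt, of which 5.38% were higher with Dntt in 6 of 6 biotin negative IIA samples and 5.51% were lower in 6 of 6. Of 18 S phase genes, 12 were lower with Dntt in 6 of 6 and none higher (median log2 ratio −1.35, against 0.16 over all genes). Of 18 G2 and M phase genes, 4 were lower in 6 of 6 and none higher (median −0.77). Pcna, the clamp of the replication fork, ranged from 53.4 to 383 CPM with Dntt (median 148) and from 294 to 521 CPM without (447), and was lower with Dntt within each of the 6 samples although the ranges overlapped. Top2a, which untangles replicated chromosomes, had at most 427 CPM with Dntt and at least 478 CPM without.

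Rag1 and Rag2 were higher with Dntt in 6 of 6 samples, while their list was split. Of 11 recombination and end joining genes, 3 were higher (Dntt itself, Rag1 and Rag2) and 3 lower (Xrcc5, Hmgb1 and Hmgb2) in 6 of 6, and without the rule's genes Rag1 and Dntt 1 of 9 was higher and 3 lower. Xrcc5 rested on 0 UMIs with Dntt and 14 without, at a mean of 20.9 CPM without Dntt, close to the floor of 20 CPM. Rag1 had a lowest level of 75.2, a median of 192 and a highest level of 331 CPM in precursors with Dntt, and 0, 38.8 and 86.3 CPM in those without. Its partner Rag2 had 54.6, 89.5 and 321 CPM with Dntt and 0, 10.3 and 26.1 CPM without. Rag2 did not overlap between the parts, and Rag1 overlapped between its lowest sample with Dntt and its highest without.

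Of 20 B lineage transcription factors, 5 were higher with Dntt in 6 of 6 samples and none lower: Tcf4, Foxo1, Lef1, Sox4 and Erg. Lef1, a Wnt pathway factor of early lymphocytes, had 1223 to 2569 CPM with Dntt (median 1488) and 326 to 763 CPM without (465). Erg, an Ets factor of blood progenitors, had 331 to 1117 CPM with Dntt (679) and 0 to 463 CPM without (59.9). Tcf4, an E protein, had 564 to 1058 CPM with Dntt (702) and 137 to 295 CPM without (212). Lef1 and Tcf4 did not overlap between the parts, whereas Erg did.

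Of 15 surrogate light chain and pre-B cell receptor signalling genes, 6 were higher with Dntt in 6 of 6 samples and 2 lower. The 6 include Vpreb1 and Cd79a, genes of the rule, and the part of depth in their levels was not tested. Without the rule's genes Vpreb1, Igll1 and Cd79a, 4 of 12 were higher (Vpreb2, Vpreb3, Cd79b and Blnk) and 2 lower. Blnk, the adaptor of the pre-B cell receptor, was at 903 to 1613 CPM (median 1179) with Dntt and 157 to 388 CPM without (283). The lower ones were the inhibitory coreceptor Cd72, at 101 ± 44.1 against 295 ± 69.9 CPM (mean ± SD, n = 6), and Fcrla, an Fc receptor-like protein kept inside B cells, at 29.7 ± 25.6 against 189 ± 68.6 CPM. Cd24a, the heat stable antigen used to stage precursors, had 263 to 801 CPM with Dntt and 875 to 1389 CPM without. Il7r had the same median on both sides of the split, 255 CPM each.

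**Figure D2:**
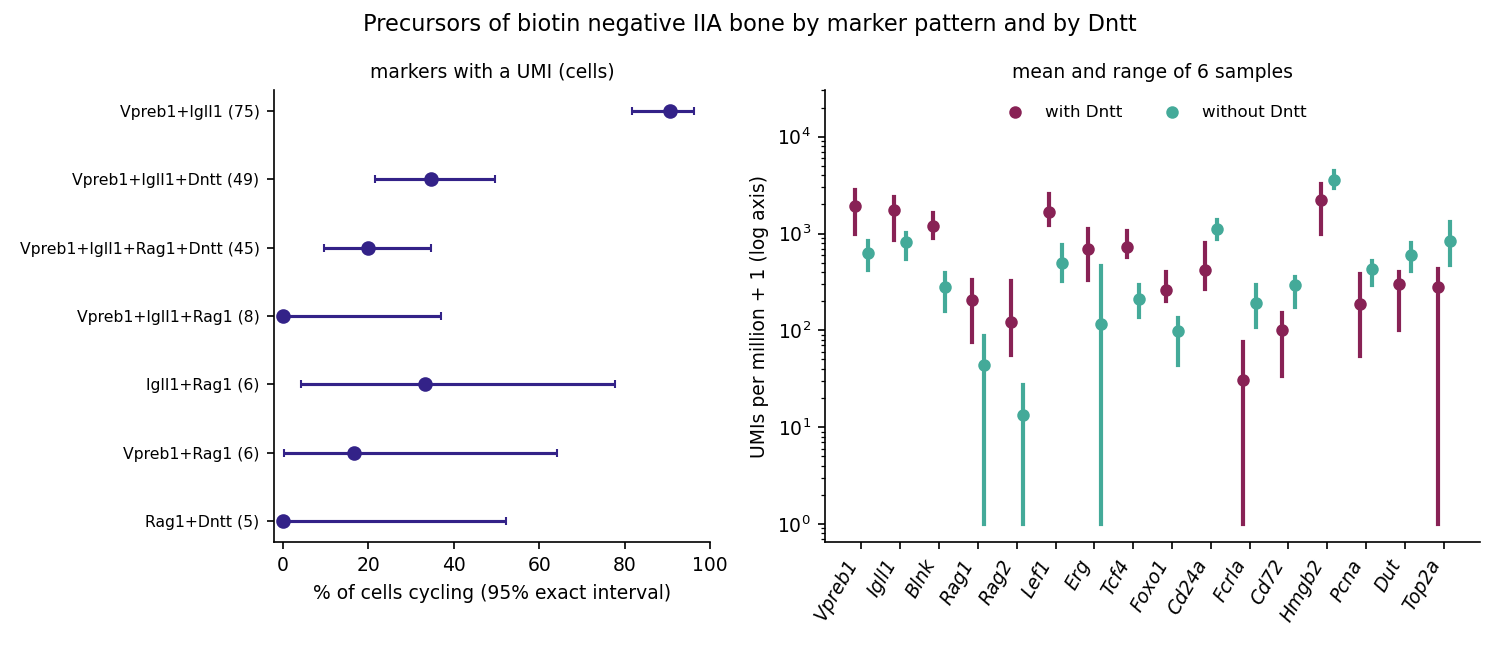
Left, share of biotin negative IIA precursors called cycling (%, x axis) by marker pattern (y axis, cell number in brackets), with 95% exact intervals. Right, level of 16 genes (CPM plus 1, log axis) in precursors with and without Dntt, where points are means and lines the range of 6 samples: Lef1, Tcf4, Blnk and Rag2 lie higher with Dntt without overlap, and Cd24a, Fcrla and Top2a lie lower without overlap.

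Precursors were next set beside later B cells of the same biotin negative IIA samples, which held Cd79a, Ms4a1 and Ighd and none of the 4 markers (38 to 167 cells per sample, 425 in all, median 1748 UMIs against 3376.5 in precursors). Both sides were defined by marker genes, so this comparison is a description with no test. Of 7661 genes at 20 CPM or more, 14.8% were higher in precursors in 6 of 6 samples and 11.7% were lower in 6 of 6, with a median log2 ratio of 0.04.

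Vpreb1 and Igll1 were at 0 in later B cells by definition. Vpreb1 had a lowest level of 789.6, a median of 958 and a highest level of 1409.9 CPM in precursors, and Igll1 had 843, 1096 and 1435 CPM. Vpreb2, the second copy of the surrogate V-like gene, played no part in the choice and had 89.7, 169.8 and 281 CPM, with 0 UMIs in later B cells of all 6 samples. Set against 3 counts over the group, that is at least 56.7-fold higher. Transcripts of Vpreb1 and Vpreb2 were identical at 97.4% of 759 aligned bases and shared 15.8% of 90-base windows, so reads may have been split between them. Vpreb3, which binds newly made immunoglobulin chains, had 1254 to 2341 CPM in precursors (median 1460) and 123 to 1157 CPM in later B cells (325), without overlap.

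The 15 genes of the surrogate light chain and its receptor signalling did not move as a block. The 4 higher in precursors in 6 of 6 samples were Vpreb1, Vpreb2, Vpreb3 and Igll1, of which Vpreb1 and Igll1 were so by definition, and the 6 lower included the receptor chains Cd79a and Cd79b, the kinases Lyn and Btk and the phospholipase Plcg2. Cd79a had 836 to 1340 CPM in precursors (median 1010) and 1724 to 3266 CPM in later B cells (2396). The adaptor Blnk overlapped, at 576 ± 63.2 against 475 ± 89.7 CPM (mean ± SD, n = 6).

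Of 11 recombination and end joining genes at this level, 7 were higher in precursors in 6 of 6 samples and none lower, with a median log2 ratio of 2.26. Rag1 and Dntt are among the 7, and the definition of later B cells set both to 0 there. Without these genes, 5 of 9 were higher and none lower, with a median of 2.17. Rag2 had 24.6 to 62.8 CPM in precursors (median 38.8) and 0 to 11.2 CPM in later B cells (0). Xrcc6, the Ku70 end binding protein, had 104 to 167 CPM (116) against 0 to 21.6 CPM (7.30), a ratio of means of 16.8. Lig4, the ligase of end joining, had 32.9 to 89.3 CPM (51.5) against 0 to 15.5 CPM (4.65). None of these 3 genes overlapped. Xrcc5, the Ku80 partner of Xrcc6, stayed low on both sides at 13.9 ± 5.93 against 24.1 ± 22.7 CPM.

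Transcription factors went both ways, with 9 of 20 higher in precursors in 6 of 6 samples and 6 lower. Ebf1, the specification factor of the lineage, had 4130 to 6592 CPM in precursors (median 5363) and 1108 to 4847 CPM in later B cells (2454). Lef1 had 565 to 1171 CPM (939.9) against 7.77 to 44.9 CPM (16.2), a ratio of means of 43.4. Myb, a proto-oncogene of immature blood cells, had 322 to 541 CPM (399) against 31.1 to 85.5 CPM (62.1). Lef1 and Myb left a gap between the groups, and Ebf1 overlapped between samples while being higher within each. Sox4 had 333 ± 89.0 against 53.6 ± 35.3 CPM and Tcf3 364 ± 41.7 against 146.5 ± 59.3 CPM. Among the 6 lower, Ikzf3 (Aiolos) had 51.0 to 242 CPM in precursors (114) and 545 to 1072 CPM in later B cells (787). Pax5, which later B cells keep, was at 674 ± 116 against 863 ± 277 CPM and overlapped.

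Interleukin 7 signalling genes were mostly not separated, with 2 of 13 higher in precursors in 6 of 6 samples and 4 lower. Il7r had 219.6 to 306 CPM in precursors (median 259) and 0 to 62.1 CPM in later B cells (7.77). Socs2, a feedback inhibitor of the pathway, had 38.3 to 89.7 CPM (76.5) against 0 to 4.79 CPM (0). The 4 lower were the shared cytokine receptor chain Il2rg, the kinase Jak1 and the survival genes Bcl2 and Mcl1. Bcl2 had 12.8 to 49.2 CPM in precursors (28.5) and 131 to 492 CPM in later B cells (321), a ratio of means of 10.3 in favour of later B cells.

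Early surface genes split 4 higher and 2 lower in 6 of 6 samples among 8 at this level. Higher were Il7r, Enpep (the BP-1 antigen of pre-B cells) at 70.5 ± 21.9 against 2.83 ± 6.94 CPM, Cd93 (the AA4.1 antigen of immature B cells) at 168 ± 30.7 against 36.0 ± 26.2 CPM, and Cd24a at 885 ± 159.8 against 296 ± 77.2 CPM. Lower were the phosphatase Ptprc (CD45) at 237 ± 63.0 against 960.3 ± 138 CPM and Ly6d at 145 ± 102 against 1177 ± 286 CPM. Kit and Flt3, receptors of the earliest lymphoid progenitors, were found in 7.5% and 4% of precursors.

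Of 19 later B cell genes, 18 were lower in precursors in 6 of 6 samples, with a median log2 ratio of −4.48. Ms4a1 and Ighd were part of the definition of later B cells, and without them 16 of 17 were lower. Cd74, the invariant chain of class II antigen presentation, had 8.63 to 246 CPM in precursors (median 36.2) and 5145 to 7887 CPM in later B cells (6507). The class II gene H2-Aa had 48.4 ± 38.9 against 2024 ± 739 CPM. Fcer2a (CD23) and Cr2 (CD21), receptors of mature follicular cells, had 0 UMIs in the precursors of all 6 samples against means of 117 and 138 CPM, at least 36.2-fold and 41.2-fold lower against 3 counts over the group.

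Cell cycle genes were higher in precursors nearly throughout, with 15 of 18 S phase genes (median log2 ratio 2.12) and 17 of 18 G2 and M phase genes (2.90) higher in 6 of 6 samples and none lower in 6 of 6. Uhrf1, which keeps DNA methylation through replication, had 123 to 332 CPM (median 241) against 9.58 to 38.9 CPM (20.0). Top2a had 443 to 1175 CPM (577.5) against 30.8 to 317 CPM (72.6), and Mki67 307 to 996 CPM (423) against 17.0 to 166 CPM (54.8). All 3 left a gap between the groups. Cycling cells made up 48.5% of the precursors (interval 41.4 to 55.7), ranging from 38.2% in sample 1 to 63.2% in sample 6.

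Homing, survival and stress genes are given beside the 14.8% of all genes that were higher and the 11.7% that were lower. Of 12 homing and adhesion genes, the integrin chain Itga4 was higher in 6 of 6 samples at 378 ± 60.1 against 219.9 ± 61.6 CPM, and 5 were lower, among them the egress receptor S1pr1 at 16.2 ± 13.7 against 108 ± 39.3 CPM and the follicle homing receptor Cxcr5 at 11.6 ± 7.475 against 57.9 ± 22.1 CPM. Cxcr4, the receptor for the marrow chemokine Cxcl12, overlapped at 64.2 ± 54.5 against 53.0 ± 31.3 CPM. Of 10 apoptosis regulators, 2 were lower (Bcl2 and Mcl1) and none higher, counts too small to set apart from those shares. Of 17 stress and immediate early genes, 4 were lower (Fosb, Jund, Egr1 and Ier2) and Hsp90aa1, a chaperone, was higher at 691 ± 263 against 298 ± 68.2 CPM.

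**Figure D3:**
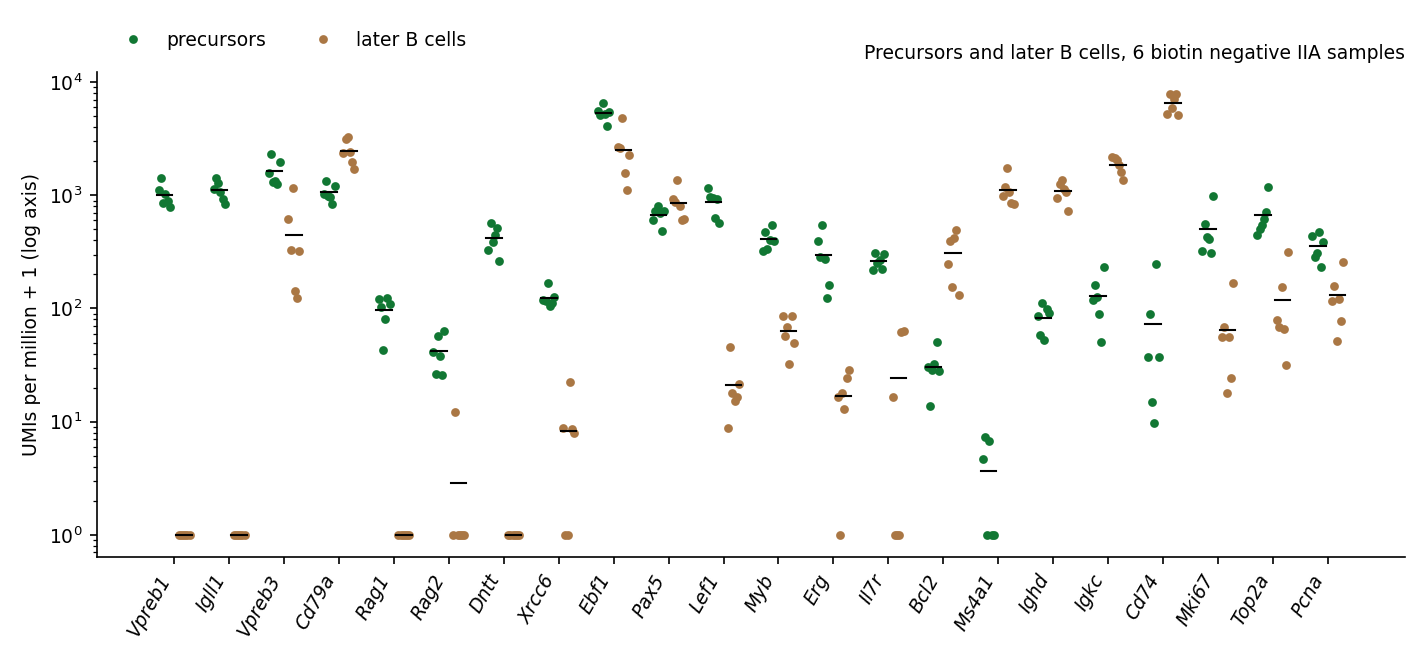
Level of 22 genes (CPM plus 1, log axis) in precursors and later B cells of the 6 biotin negative IIA samples, where each point is 1 sample and bars are means. Vpreb1, Igll1, Rag1 and Dntt are at 0 in later B cells by definition, and Lef1, Xrcc6, Il7r and the cell cycle genes Mki67 and Top2a lie higher in precursors in all 6 samples.

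The 20 genes with the highest ratio of means over later B cells, leaving out the genes of the rule, immunoglobulin segments and mitochondrial genes, included several outside the lists. Gfra2, a receptor for glial-derived neurotrophic factors, had 89.2 to 126 CPM in precursors (median 114) and 0 UMIs in later B cells, at least 34.7-fold higher. Its relative Gfra1 had 234 to 523 CPM (302) against 0 to 20.7 CPM. Arpp21, a phosphoprotein whose gene also hosts a microRNA, had 83.4 to 333 CPM (219) against 0 to 2.40 CPM. These 3 genes did not overlap between the groups. The others were Vpreb2, Adgrg1, Rsph9, Auts2, Nrgn, Gm30948, 1810059H22Rik, Epb41l4b, 2900026A02Rik, Lef1, Elovl6, 2610307P16Rik, 1700027J07Rik, Rsph1, Gm32569, Erg and Xrcc6. The 10 lowest were Cd74, Bank1, Cd83, Fcmr, Ms4a1, Gm43388, Fcer2a, Cr2, H2-DMb2 and Setbp1, led in level by Cd74 and by the B cell scaffold Bank1 at 15.8 ± 13.98 against 1746 ± 419 CPM.

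Heavy chain transcripts were found in most precursors and light chain transcripts in fewer. Ighm, the mu heavy chain, was found in 94.5% of the 200 precursors (80.5% with at least 3 UMIs), against 15.8% of neutrophils (1.33%). Igkc was found in 31.0% (interval 24.7 to 37.9) and at 3 or more UMIs in 8%, against 9.95% and 0.403% of neutrophils and 91.5% and 64.7% of 425 later B cells. By Dntt, Igkc was found in 13.3% of precursors with it and 50.5% of those without it, at median depths of 2574 and 6236 UMIs. A kappa V segment was found in 29.5% of precursors against 23.2% of neutrophils, and a heavy V segment in 16% against 5.50%. The 5 cells with Ighv14-2 were the most for any heavy V segment, named after its values were seen.

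RNA of other cells was counted in precursors as well. The sum of 9 neutrophil genes, each found in precursors, was 1980 to 17799 CPM in precursors (median 5399), 9295 to 94051 CPM in later B cells and 329309 to 365908 CPM in neutrophils, and S100a8 was found in 84.5% of precursors. Of 8 T cell genes, 6 were at 0 in precursors (Cd3e, Cd3g, Trac, Trbc2, Cd8a and Cd4), and the summed level was 13.9 to 58.6 CPM against 2497 to 3574 CPM in T cells. Of 7 plasmacytoid dendritic cell genes, 6 had a UMI, at 334 to 578 CPM in precursors and 225 to 644 CPM in later B cells. The part of such RNA in the gene differences was not tested.

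The biotin sorts were then compared, which asks whether precursors lay among the tagged cells as often as among the untagged ones. In such shares, fewer precursors and more of other cells cannot be told apart. Per biotin negative IIA sample, precursors were 55 of 2599, 37 of 2693, 17 of 2322, 61 of 3073, 11 of 3480 and 19 of 3306 kept cells (samples 1 to 6), or 2.12%, 1.37%, 0.732%, 1.99%, 0.316% and 0.575%. Per biotin positive sample they were 0 of 423, 2 of 485, 7 of 955, 2 of 249, 1 of 2140 and 1 of 637, or 0%, 0.412%, 0.733%, 0.803%, 0.0467% and 0.157%, and the 0 of sample 1 allows a share of up to 0.709% by 3 counts and 0.868% by the exact interval. Samples 1 and 4 were highest among the negative sorts, samples 5 and 6 were low in both sorts, and the groups overlapped.

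The mean share was 0.359% ± 0.348 in positive and 1.18% ± 0.758 in negative IIA samples (SD, n = 6 each), a difference of −0.824 percentage points. The 2-sided exact permutation test over 924 assignments gave p = 0.0390, with n = 6 and 6, and 0.117 after Benjamini-Hochberg adjustment over the 3 share tests of the experiment, so it did not pass 0.05. The share was lower in the positive sort in 5 of 6 numbers, and paired by number the exact sign-flip test gave p = 0.0625, adjusted 0.188 (smallest possible unadjusted 0.03125). Leaving cells that met the neutrophil gene threshold out of the denominator gave −2.85 points with an adjusted exact permutation p of 0.0325. The cells left out included those with Cd79a, unlike in the neutrophil class above, while all precursors stayed in the numerator. Without negative sample 5 the difference was −0.998 points with an adjusted p of 0.0455 in the same test, so both passed. Over the alternatives of this share the adjusted p ran from 0.0325 to 0.201, and over the samples left out in turn from 0.0455 to 0.240. Apart from the sign-flip test these tests did not pair the sorts, and pairing was not tried at either setting that passed.

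Set against the B lineage alone, the sorts were not shown to differ. Precursors were 13.8%, 17.1%, 11.3%, 11.7%, 4.53% and 7.72% of the Cd79a cells of negative samples 1 to 6, and 0%, 20.0%, 15.6%, 10.0%, 1.92% and 4.76% in the positive samples, where 7 to 52 cells held Cd79a. Cd79a cells themselves made up 6.46% to 16.9% of kept cells in negative samples and 1.65% to 8.03% in positive samples. The means were 11.02% ± 4.41 and 8.71% ± 7.92 (SD, n = 6 each), with an exact permutation p of 0.537 (adjusted 0.784). Of precursors and later B cells together, precursors were 31.7% ± 10.7 in negative and 34.6% ± 23.2 in positive samples, with an exact p of 0.784 (adjusted 0.784). The direction of this last difference turned with the processing, to −7.08 points when 3 of 4 markers were required.

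**Figure D4:**
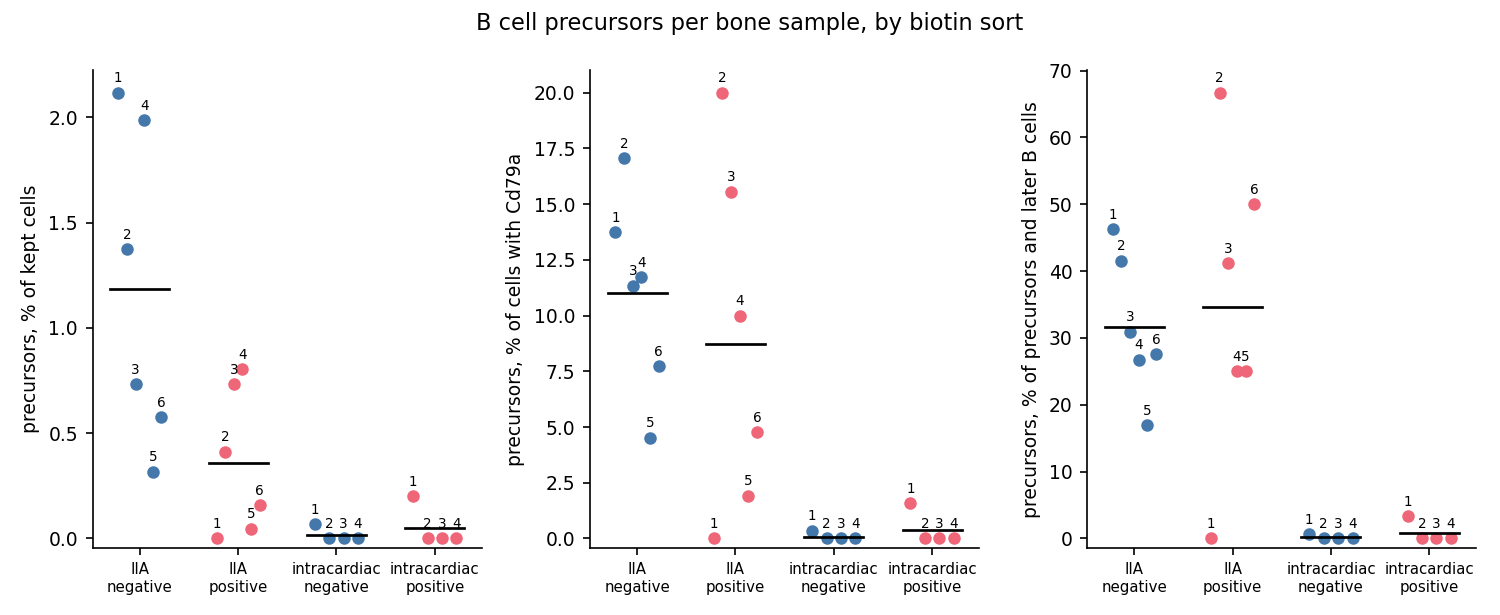
Precursors per bone sample as a share (%, y axes) of kept cells, of cells with Cd79a, and of precursors plus later B cells, for each experiment and sort, where points carry the sample number and bars are means. In IIA bone the kept-cell share was lower on average in the positive sort and overlapped, and in intracardiac bone the samples numbered 2, 3 and 4 are at 0.

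Because depth differed between the sorts, kept cells were also thinned to 1500 UMIs, leaving out 3002 negative and 765 positive IIA cells that were shallower. Precursors were then 95 of 14471 negative cells (0.656%) and 4 of 4124 positive cells (0.0970%). The unthinned pooled shares were 1.14% and 0.266%. Positive sample 5 gave 1890 of the 4124 thinned cells. Averaged over samples, the thinned shares were 0.685% in negative and 0.172% in positive samples (exact permutation p = 0.0281, adjusted 0.0844).

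The 13 biotin positive IIA precursors, 7 of them in sample 3, were too few for a comparison of composition. Vpreb1 was found in 84.6% (interval 54.6 to 98.1), Igll1 in 92.3% (64.0 to 99.8), Rag1 in 30.8% (9.09 to 61.4) and Dntt in 23.1% (5.04 to 53.8), and 69.2% were cycling (38.6 to 90.9). The pattern of Vpreb1 with Igll1 alone held 8 of the 13, of which 7 were cycling. All 13 held Ebf1, 92.3% held Pax5 and none held Ms4a1. No positive sample had 10 precursors, the minimum set for testing composition, so these shares were not tested between the sorts.

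Genes within precursors were compared between the sorts with all samples that held a precursor, 5 positive samples of 1 to 7 cells (5420 to 44438 UMIs) and 6 negative samples of 11 to 61 cells (71907 to 347629 UMIs). Of 1294 genes tested with edgeR's quasi-likelihood test, 0 were called at an adjusted p under 0.05 (0%), with 162 at an unadjusted p under 0.05. DESeq2 called 5 (0.386%), namely Cmss1, Malat1, mt-Nd4l and S100a6 lower and Ranbp1 higher in the positive sort, edgeR with the sample number as a block called 6 of 935 (0.642%), and edgeR without a filter on low counts called 163 of 14196 (1.15%). On simulated counts of these genes and depths the test recovered 52.2% of genes changed 2-fold and 94.0% of those changed 4-fold, and it called 9 unchanged genes. Every simulated gene had the same spread between samples, which real genes need not have, so these rates may overstate recovery in the data.

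The genes with the smallest p did not pass, and most were lower in the positive sort. Malat1, a nuclear non-coding RNA, had 181 to 2214 CPM in positive samples (median 611) and 1449.8 to 2815 CPM in negative ones (2526), a log2 difference of −1.71 ± 0.34 (SE) with an edgeR adjusted p of 0.0588. Cmss1, a small subunit ribosome factor, differed by −1.41 ± 0.30 (adjusted p = 0.0671, edgeR). Esr1, the estrogen receptor alpha, had 0 to 45.0 CPM in positive samples and 135 to 325 CPM in negative ones, resting on 2 and 219 UMIs, with the same adjusted p. The other 7 were Gm42418, mt-Nd4l, H2-D1, Mcl1 and mt-Co1, lower in the positive sort, and Ddx1 and Ranbp1, higher. The block fit called Malat1, Cmss1, Gm42418, AY036118, S100a8 and S100a9, all lower in the positive sort, and S100a8 and S100a9 are neutrophil genes. The summed level of 9 neutrophil genes was 2738 CPM in the pooled positive precursors, against 1980 to 17799 CPM in the negative samples.

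By list, edgeR with the filter on low counts called none of the tested members. Without that filter it called 163 of 14196 genes (1.15%), 161 of them lower in the positive sort. Among these were the list members Erg (adjusted p = 5.61e-05, 4 UMIs in positive samples), Blnk (0.00693, 26 UMIs), Sox4 (0.00868, 12 UMIs) and Lef1 (0.0167, 42 UMIs). Cd79a and Dntt were called too (54 and 20 UMIs), but their values chose the cells, so these calls are not read as a result. Genes of other cells were called lower as well, among them the neutrophil genes S100a8, S100a9 and Retnlg and the erythroid gene Hbb-bs. In the filtered fit, all 11 S phase genes tested had a log2 difference above 0 (median 0.37), 1 of 10 G2 and M phase genes did (median −0.55), and 540 of all 1294 genes did (median −0.08). Of 13 surrogate light chain and receptor signalling genes 1 was above 0 (median −0.57), and of 17 transcription factors 2 were (median −0.62). The first of these lists holds Vpreb1, Igll1 and Cd79a, whose values chose the cells, and no count without them was made. Vpreb1 pooled over the 13 positive precursors was at 844 CPM and Igll1 at 1016 CPM, inside the range of the negative samples.

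Intracardiac bone, read with another chemistry, held fewer precursors. Negative sample 1 held 2 among 2961 kept cells (0.0675%, interval 0.00818 to 0.244) and positive sample 1 held 4 among 2008 (0.199%, 0.0543 to 0.509). Negative samples 2 to 4 held 0 of 2570, 0 of 2446 and 0 of 3505, which allows shares of up to 0.117%, 0.123% and 0.0856% by 3 counts and 0.143%, 0.151% and 0.105% by the exact interval. Positive samples 2 to 4 held 0 of 1022, 0 of 620 and 0 of 865, which allows up to 0.294%, 0.484% and 0.347% by 3 counts and 0.360%, 0.593% and 0.426% by the exact interval. The mean difference of positive minus negative was 0.0329 points and its exact permutation p was 1 (n = 4 each, smallest possible 0.0286). Without positive sample 1 the difference was −0.0169 points.

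These 6 cells carried the same B lineage genes. All held Vpreb1, Ebf1, Pax5 and Il7r, 5 held Igll1, 3 held Rag1 and 2 held Dntt, and none held Ms4a1. The 4 positive cells were all called cycling and were deep, with 9528 to 39300 UMIs, and 1 of the 2 negative cells was cycling, at 8409 UMIs. Just outside the rule, 42 intracardiac bone cells held Cd79a and 1 marker, which was Rag1 in 31. The difference between sorts in kept-cell share was −0.857 points in IIA relative to intracardiac bone, with an exact permutation p of 0.0571 over the numbers (n = 6 and 4, adjusted 0.171), so the experiments were not shown to differ in it.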

How the data were processed

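Single-cell RNA counts of 33 mouse samples were deposited by the authors as UMI counts per gene and barcode, not normalized (per the file headers, 32285 genes and 83731 barcodes, none under 500 UMIs). The submitters' processing notes name Cell Ranger, Seurat and mm10. Intracardiac matrices had been split by sample by the authors. The pooled IIA matrix was split here by its 12 hashtag counts, whose names in the matrix (CMO) and in the deposited hashtag table (C0) were matched by number.

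From these counts the rule, cell classes and sums per sample scaled to 1000000 UMIs (CPM) were computed with python 3.11.15, scipy 1.17.1 and scanpy 1.11.5. Doublets were not removed, and leaving out the 5% of cells per sample with the highest Scrublet score was an alternative. Shares per sample were compared by 2-sided exact permutation tests, adjusted over 3 per experiment. Genes within precursors were tested with edgeR 4.0.16 (R 4.3.3), checked on simulated data, with DESeq2 1.42.0 as an alternative. The planned fit needed 10 precursors per sample, which no positive sample had, so samples with at least 1 were used, a choice made after the data were seen.

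Samples of the same number correlated in their deviations from the group means (r of 0.132 to 0.640 over 6 IIA pairs and 0.340 to 0.786 over 4 intracardiac pairs, 10 of 10 above 0.1, and 4 of 6 IIA and 4 of 4 intracardiac pairs correlating best with their own number), so the numbers were taken to pair the sorts. Named genes were the 5 genes of the rule, the 10 genes of smallest p where fewer than 10 passed, up to 4 members of each of 12 lists by level, and the 20 highest and 10 lowest ratios to later B cells among genes at 100 CPM or more. Other list members named in the text, and counts without the defining genes, were chosen after their values were seen. The values of some list members, and the interferon list, are not reported here. The members and lists were chosen with earlier results of these data known. Promoter windows were read from RefSeq, build GRCm38.p6.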

Additional observations from a re-analysis of the deposited data

Results flagged for a closer look

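Intracardiac number 1 stood apart from numbers 2, 3 and 4 in both sorts. Its share of precursors was 0.0675% of kept cells in the negative and 0.199% in the positive sample, 0.338% and 1.59% of cells with Cd79a, and 0.585% and 3.33% of precursors and later B cells, against 0 in the other 3 samples of each group. With 3 of 4 samples at 0, any sample above 0 lies at the full range from the others. Each of these 6 shares rests on 2 or 4 cells, and the 3 shares of a sort count the same cells. In all 12 groups were looked at in this way. Chance marks about 1 in 20 groups of freely varying values, a rate that does not apply where 3 of 4 samples are at 0.

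Cells meeting the same rule were also present in intracardiac brain, which the comparisons of bone did not use. Brain held 11, of which 9 were in negative sample 1 (all 9 called cycling, none with Dntt) and 2 in positive sample 1 (neither cycling, both with Dntt). Liver held 1, in positive sample 1, and lung held 0 of 17926 kept cells. Over the 4 tissues, all 18 such cells came from number 1, which had 17992 kept cells, and 0 from numbers 2, 3 and 4, which had 14144, 10213 and 13017. The sample titles do not say whether a number also marks a library or run, and what sets number 1 apart was not tested.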

How the results depend on the processing

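The lower share of precursors among kept cells in positive IIA samples kept its direction under 9 alternatives (−2.85 to −0.50 points). It passed when cells meeting the neutrophil gene threshold, with or without Cd79a, were left out of the denominator (−2.85, adjusted exact permutation p = 0.0325). Fewer cells are counted there, and all precursors stayed in the numerator. The difference also passed without negative sample 5, and both tests were unpaired. Leaving out 1 sample gave −0.998 to −0.638. The share of Cd79a cells turned to 0.0672 with at least 2 Cd79a UMIs, and leaving out 1 sample gave −4.57 to −0.571. The share of precursors and later B cells turned to −7.08 with 3 of 4 markers, −0.152 without the highest Scrublet scores and −0.356 with the stricter hashtag rule (chosen for this share after its values were seen), and to −3.42 and −0.0838 without positive samples 2 and 6 (range −3.42 to 9.92). The cause was not tested. In intracardiac bone all 3 shares turned without positive sample 1 (−0.0169, −0.0845 and −0.146), and leaving out 1 sample gave −0.0169 to 0.0498, −0.0845 to 0.445 and −0.146 to 0.965.

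Genes called within IIA precursors numbered 0 with the filter on low counts and 163 without it (2 higher, 161 lower, 25 of them with no UMI in positive samples), 5 with DESeq2, and 0 to 5 when 1 sample was left out (5 without positive sample 2, 5 without 4, 3 without 3, 2 without negative sample 2, 1 without 4). With the replicate block, number 1 left out, 6 were called. The tests with the replicate block made no call on shares (IIA kept share p = 0.0625, exact sign-flip test), and say little about stability: the smallest possible unadjusted p was 0.03125 in IIA, and 4 intracardiac pairs cannot reach 0.05. With 0 to 7 precursors per positive sample, the planned tests of cycling, Dntt and Ms4a1 shares, the planned gene fits at 10 or 20 precursors, the intracardiac gene fits and the stricter hashtag rule for genes were not run.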
